A study of Mus musculus with 2 samples.

Results

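The vascular endothelial growth factor (VEGF) family was described in liver NPCs by scRNA-seq as 10 genes, taken by name: the ligands Vegfa, Vegfb, Vegfc, Vegfd and Pgf, the receptors Flt1, Kdr and Flt4, and the neuropilins Nrp1 and Nrp2. All 10 were listed in both expression tables, among 20468 genes in the normal library, 20473 in the fibrosis library and 21722 in either. Each library came from 1 male C57BL/6 mouse of 8 weeks. The normal mouse, whose liver the labels call quiescent, was given olive oil, and the fibrosis mouse was given CCl4, a hepatotoxin, as 0.6 µl per g of a 15% solution in olive oil, by intraperitoneal injection, 2 times per week over 6 weeks, with cells isolated 48 h after the final injection. The livers were perfused with collagenase, hepatocytes were spun out at low speed and debris was removed on a density gradient. With 1 library per group there is no biological replicate. No test between the groups was therefore possible, each difference given is one between 2 animals, and every interval below covers counting error only.

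VEGF ligands are secreted growth factors that act on receptor tyrosine kinases of the endothelial surface. KDR (VEGFR-2) carries most of the growth and permeability response to VEGF-A, FLT1 (VEGFR-1) binds VEGF-A, VEGF-B and PGF tightly but signals weakly, and FLT4 (VEGFR-3) binds VEGF-C and VEGF-D and is best known in lymphatic vessels. Neuropilins are co-receptors without kinase activity, which also bind class 3 semaphorins. In the liver, sinusoids are lined by fenestrated LSECs, which line the path of the blood from the portal vessels (zone 1) to the central vein (zone 3), and VEGF from neighbouring cells is known to maintain their fenestrae.

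The normal library held 8130 cells and 44062632 unique molecular identifiers (UMIs, 1 per counted RNA molecule), and the fibrosis library 6437 cells and 53288463 UMIs, with medians of 4144.5 and 5619 per cell. After cells with a mitochondrial share of 10% or more were left out, 7471 and 6132 cells remained, and 15 cell barcodes occurred in both libraries. Cells were clustered without the 10 genes and named by markers, as "X-like". EC-like cells numbered 2426 in the normal library and 1684 in fibrosis. Of 20 endothelial markers, 20 and 19 were over 2 times their level in the other cells. LSEC-like cells (1963 normal, 1349 fibrosis) comprised zone 1-like, zone 2/3-like, EC-like cells without a zone and, in fibrosis, 183 cycling EC-like cells. In fibrosis the 333 cells placed by the zone 1 list are called here the Igfbp5-led ECs, after their leading gene. All 12 zone 1 markers exceeded the other ECs in them, but their 10 leading genes held 2 portal vessel markers (Adgrg6 and Ntn4) and 1 of zone 1 (Efnb1), while sub-clusters of 169 and 276 cells with a zone 1 marker among the 10 leading genes were placed among the EC-like cells without a zone. The Igfbp5-led ECs are therefore not compared with the zone 1-like cells of the normal library, and the LSEC-like cells of fibrosis are also given without them where that changes the call of a member. Central vein-like and portal vessel-like ECs were kept apart. The fibrosis zone 2/3-like group was weakly marked, since all 12 of its markers exceeded the other ECs but 0 of 12 exceeded them 2 times. The fibrosis central vein-like group was weaker in its markers than the normal one, at 76.7 against 158 UMIs per 10000.

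Levels are given as the UMIs of a gene per 10000 UMIs of a group of cells, with an exact 95% Poisson interval. The 3′ assay counts 1 UMI per molecule whatever the length of the gene. Lymphoid cells (B-like and NK/T-like together) are not endothelial, yet the 20 endothelial markers summed to 41.0 per 10000 in normal and 63.7 in fibrosis lymphoid cells. LSEC-like cells had 285 and 249. Some of these markers are not confined to ECs, and the part of the lymphoid sum made by the lymphoid cells themselves was not tested. The lymphoid level is therefore printed beside each receptor as a measure of background, and it was higher in the fibrosis library. The background of another group can differ from it, since groups differed in depth and in endothelial-marker level.

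On GRCm38 (GENCODE annotation), Kdr (ENSMUSG00000062960) lies on the minus strand at chr5:75932827-75978458 and Flt1 (ENSMUSG00000029648) on the same strand at chr5:147561604-147726011. Flt4 (ENSMUSG00000020357) is at chr11:49609263-49652739, Nrp1 (ENSMUSG00000025810) at chr8:128358604-128503363 and Nrp2 (ENSMUSG00000025969) at chr1:62703285-62818695, all on the plus strand. Among the ligands, Vegfa (ENSMUSG00000023951) lies at chr17:46016993-46032369, Vegfb (ENSMUSG00000024962) at chr19:6982473-6987651 and Pgf (ENSMUSG00000004791) at chr12:85166635-85177790, on the minus strand. Vegfc (ENSMUSG00000031520) at chr8:54077606-54187096 and Vegfd (ENSMUSG00000031380) at chrX:164373378-164402650 lie on the plus strand.

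Promoters were read from RefSeq on GRCm38.p6, and all 10 members matched. Those of Kdr, Flt1 and Vegfc are printed as those of the most abundant receptor, of the receptor that was highest in the larger-vessel ECs of the normal library, and of the ligand that was highest in ECs. Each run holds the 250 bases before the annotated start, 5′ to 3′ on the strand of the gene. Capitals mark the core of the binding sequence of ETS factors, which drive many endothelial genes, searched as GGAA or, for the opposite strand, TTCC.
Kdr, chr5:75978456-75978705, minus strand: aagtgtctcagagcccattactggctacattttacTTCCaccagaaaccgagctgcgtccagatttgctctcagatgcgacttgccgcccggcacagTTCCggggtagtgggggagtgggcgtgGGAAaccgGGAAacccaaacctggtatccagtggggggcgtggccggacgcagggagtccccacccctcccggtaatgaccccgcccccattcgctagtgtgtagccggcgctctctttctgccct
Flt1, chr5:147726012-147726261, minus strand: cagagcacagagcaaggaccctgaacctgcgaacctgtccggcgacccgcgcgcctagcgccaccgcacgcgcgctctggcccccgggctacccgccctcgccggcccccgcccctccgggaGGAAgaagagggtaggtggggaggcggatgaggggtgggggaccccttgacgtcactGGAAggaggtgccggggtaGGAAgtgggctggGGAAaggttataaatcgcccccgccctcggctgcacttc
Vegfc, chr8:54077282-54077531, plus strand: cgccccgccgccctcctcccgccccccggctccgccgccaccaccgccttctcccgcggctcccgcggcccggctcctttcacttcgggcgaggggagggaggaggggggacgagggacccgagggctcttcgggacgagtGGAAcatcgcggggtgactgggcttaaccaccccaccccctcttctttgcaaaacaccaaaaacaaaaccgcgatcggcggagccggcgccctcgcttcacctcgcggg
Kdr, Flt1 and Nrp1 each held 4 such cores, Vegfd 3, Flt4 2, and Vegfb, Vegfc and Nrp2 1, while neither of the 2 Pgf starts had any. The core is common, as 93.4% of 32851 mouse promoters of this length held at least 1 and 33.4% held at least 4. The 2 Vegfa starts held 6 and 2 cores, and 8.69% of promoters had at least 6. The hypoxia core ACGTG (or CACGT), present in 16.6% of promoters, was found at only 1 of the 12 starts, the second of Vegfa. Flt1 and Vegfd were the members with a TATA box (TATAAA or TTTATA), which 12.4% of promoters held. A match of letters is a description, not a binding site.

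Most receptor RNA of the library lay in ECs, whereas each ligand had its own pattern over ECs, cholangiocyte-like and mesenchymal cells. Of the 8 members that reached 1 UMI per 10000 in any named group, 6 were highest in an endothelial group in each library: Vegfc and all 5 receptors and neuropilins in the normal library, and the same 6 in fibrosis. Across all genes of that level, 19.2% of 5214 in the normal library and 22.1% of 5204 in fibrosis were highest in ECs. Vegfa was highest in cholangiocyte-like cells and Vegfd in PF-like cells (portal fibroblasts, the matrix-forming cells of the portal tract). Vegfb and Pgf did not reach that level in any named group.

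**Figure D1:**
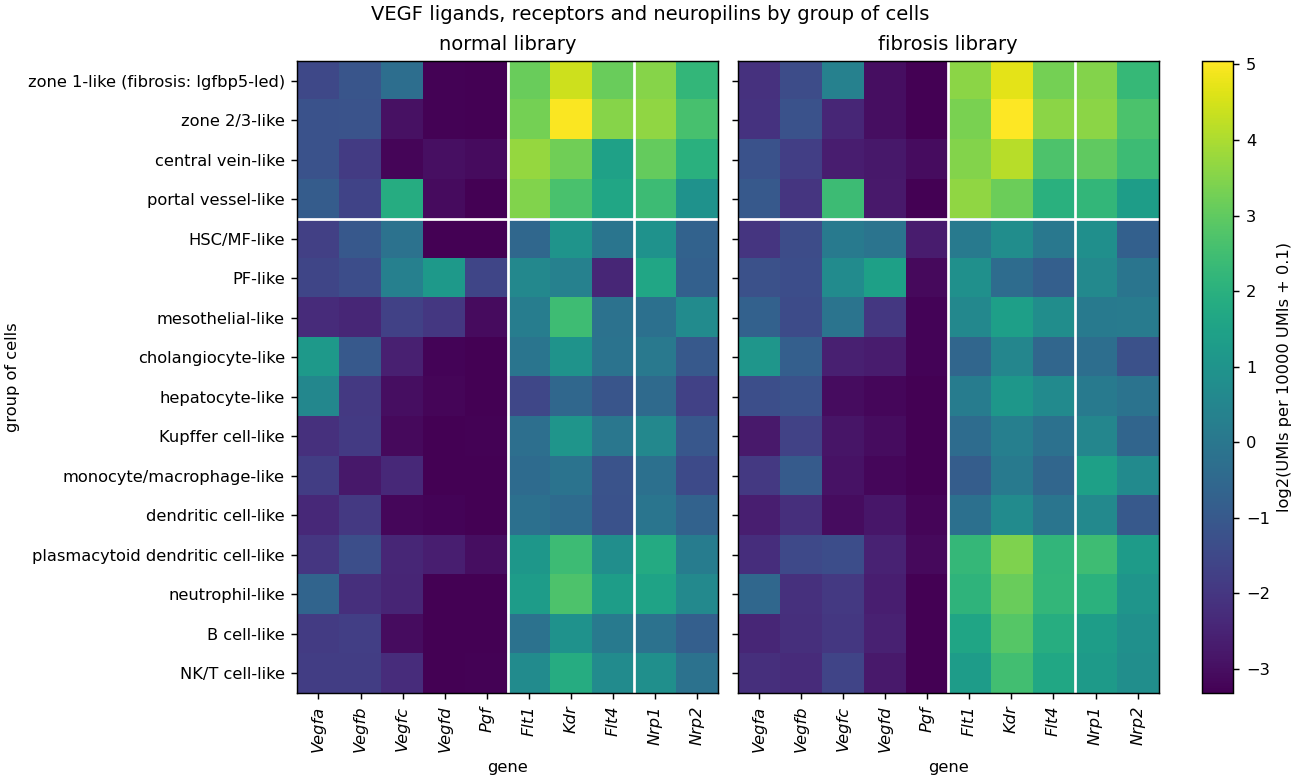
Level of each of the 10 genes (columns) in 16 groups of cells (rows) in the normal (left) and fibrosis (right) library, as the colour of log2(UMIs per 10000 UMIs + 0.1). The row marked zone 1-like shows the Igfbp5-led ECs in fibrosis. Of the rows shown, Kdr is brightest in the zone 2/3-like one, at 31.6 and 32.5, Vegfa in the cholangiocyte-like row and Vegfd in the PF-like row.

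Vegfa, the principal ligand of KDR and FLT1, was highest in cholangiocyte-like cells, which line the bile ducts. Its level there was 2.17 (2.01 to 2.34) in the normal library and 1.99 (1.79 to 2.21) in fibrosis, and these cells held 39.7% and 27.1% of all Vegfa UMIs. The intervals of the 2 libraries overlapped. Hepatocyte-like cells had 1.37 (1.17 to 1.59) in the normal and 0.300 (0.201 to 0.431) in fibrosis, a ratio of 0.219 (0.143 to 0.327). The 13 hepatocyte markers in the same cells went from 1642 to 512 per 10000, and the fibrosis group was shallow, with a median of 2038 UMIs per cell. The part of this in the Vegfa difference was not tested. Hepatocytes were depleted from both preparations, so the level in the liver as a whole was not measured. Neutrophil-like cells had 0.549 (0.378 to 0.771) and 0.591 (0.396 to 0.849), and portal vessel-like ECs 0.439 (0.354 to 0.538) and 0.404 (0.261 to 0.596), with overlap between the libraries in both groups. Mesothelial-like cells had 0.104 (0.0381 to 0.226) on 6 UMIs in the normal library and 0.501 (0.399 to 0.620) on 84 UMIs in fibrosis, a ratio of 4.82 (2.12 to 13.5). The 10 mesothelial markers in this group went from 216 to 73.9 per 10000 and the 12 Kupffer cell markers from 2.39 to 19.4, none at 0, and their part in the mesothelial differences was not tested.

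In LSEC-like cells Vegfa was low, at 0.298 (0.265 to 0.333) in the normal and 0.156 (0.133 to 0.181) in fibrosis, a ratio of 0.523 (0.431 to 0.634). Lymphoid cells moved alike, from 0.184 (0.151 to 0.222) to 0.105 (0.0760 to 0.143), a ratio of 0.574. LSEC-like cells thus lay only 1.62 and 1.48 times over the lymphoid level. The 13 hepatocyte markers, none of which exceeded the lymphoid level in LSEC-like cells and none of which was at 0, fell together with Vegfa, from 151 to 12.2 per 10000 in LSEC-like cells and from 222 to 23.4 in lymphoid cells. Their part in the Vegfa difference was not tested.

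Vegfb, which binds FLT1, was low in all groups. Its level ranged from 0.0469 to 0.478 over the groups described here. Cholangiocyte-like cells had 0.411 (0.343 to 0.488) and 0.478 (0.382 to 0.590), and LSEC-like cells 0.342 (0.307 to 0.380) and 0.345 (0.311 to 0.381), with a fibrosis over normal ratio of 1.01 (0.869 to 1.17). LSEC-like cells exceeded lymphoid cells 1.81 times in the normal library and 3.12 times in fibrosis. The widest difference was in monocyte/macrophage-like cells, at 0.0469 (0.00967 to 0.137) against 0.431 (0.379 to 0.489), but the normal value rested on 3 UMIs and the group was made of different sub-clusters in the 2 libraries.

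Vegfc, the lymphatic growth factor that binds FLT4, marked the portal end of the endothelial tree. Portal vessel-like ECs had 3.49 (3.24 to 3.75) in the normal library and 5.25 (4.70 to 5.86) in fibrosis. Zone 1-like cells of the normal library followed at 0.707 (0.618 to 0.806), and the Igfbp5-led ECs of fibrosis had 1.18 (1.06 to 1.31). The EC-like cells without a zone had 0.194 (0.128 to 0.282) and 0.211 (0.168 to 0.261). Zone 2/3-like cells had 17 UMIs in each library, for levels of 0.0303 (0.0176 to 0.0485) and 0.0856 (0.0499 to 0.137), below the lymphoid levels of 0.0835 and 0.198. Central vein-like ECs had 1 UMI in the normal library and 13 in fibrosis. No intervals overlapped between portal vessel-like, zone 1-like and zone 2/3-like cells of the normal library, where the zone 1 over zone 2/3 ratio was 23.4 (14.3 to 40.8) and portal vessel-like ECs exceeded zone 1-like cells 4.93 (4.24 to 5.75) times. In fibrosis the Igfbp5-led ECs exceeded zone 2/3-like cells 13.8 (8.49 to 24.0) times and lay below portal vessel-like ECs, which exceeded them 4.45 (3.81 to 5.19) times. With the sub-clusters placed by their 10 leading genes, an alternative chosen after the data were seen, the 445 zone 1-like cells of fibrosis had a Vegfc level of 0.203 (0.159 to 0.256). That placement put the Igfbp5-led ECs, at 1.18, into the portal vessel-like group, whose level of 5.25 holds only without them. No direction is therefore given for Vegfc in portal vessel-like ECs.

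Vegfc was the only member to pass 1.5 times between zone 1-like and zone 2/3-like cells of the normal library, 1 of 8 tested, next to 5.45% of 7225 genes in all. Between the Igfbp5-led ECs and zone 2/3-like cells of fibrosis it was also the only one, 1 of 7, next to 6.89% of 7013 genes, and with the sub-clusters placed by their 10 leading genes Vegfc had a ratio of 2.37 but a mean level under the 0.2 needed to be tested, so that 0 passed. The median log2 ratio of the members tested was −0.27 in the normal library and −0.21 in fibrosis, against 0.026 and −0.0022 over all genes. In the normal library Kdr lay just inside the limit and passed it under other groupings of the cells.

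Vegfc had a further source in mesenchymal cells. PF-like cells had 1.14 (0.810 to 1.56) and 1.54 (1.37 to 1.73), and HSC/MF-like cells (stellate cells and myofibroblasts) 0.797 (0.545 to 1.12) and 1.0 (0.881 to 1.13). Within each of these groups the intervals of the libraries overlapped. Mesothelial-like cells, of the liver surface, had 0.208 (0.107 to 0.363) in the normal and 0.834 (0.702 to 0.985) in fibrosis, a ratio of 4.02 (2.23 to 7.96), on 12 and 140 UMIs. Of the 12, 50.0% came from 1 cell.

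Vegfd, the other ligand of FLT4, was highest in PF-like cells. They had 2.16 (1.70 to 2.71) in the normal library and 2.58 (2.36 to 2.83) in fibrosis, and held 63.2% and 46.6% of all Vegfd UMIs. The make-up of the PF-like group differed between the libraries. Its 15 PF markers summed to 125 in the normal library and 74.4 in fibrosis, with Vit and Mfap5 at 0 in fibrosis. Its 18 HSC markers summed to 22.8 and 43.8. HSC/MF-like cells had 0 UMIs in 60 normal cells, which allows a level of up to 0.0747, and 0.841 (0.732 to 0.963) in fibrosis, where 72 of 176 cells had a UMI. The group held different sub-clusters in each library. The 60 normal cells fell in 1 sub-cluster, and of the fibrosis cells 57 fell in one that also held PF-like cells, led by Ankrd1, with a Vegfd level of 1.38 (1.14 to 1.65), 50 in a cycling one at 0.720 (0.568 to 0.900) and 67 in one led by S100a8 at 0.258 (0.137 to 0.441). The fibrosis level was thus 11.3 times a floor of 3 counts over the normal group, and the exact interval of the ratio began at 9.08. Lymphoid cells also went from 0 UMIs to 0.0578 (0.0366 to 0.0867), 11.5 times the same floor with an interval that began at 8.64. At 0.0578 they nevertheless lay far below the HSC/MF-like cells. The fibrosis HSC/MF-like level lay between 0.745 and 1.27 in the other groupings of the cells that could be made, highest where a coarser grouping gave 273 cells, and the normal group had at most 1 UMI. The 15 PF markers in HSC/MF-like cells summed to 10.9 in the normal library and 18.2 in fibrosis, with 9 of 15 over the lymphoid level in both. Aspn, Clec3b, Pi16, Mfap5 and Gli1 were at 0 in the normal, and Vit, Mfap5 and Gli1 in the fibrosis group. The 18 HSC markers in these cells went from 295 to 123. Their part in the Vegfd difference was not tested.

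Pgf, the placental growth factor that binds FLT1, was near the limit of detection, with 18 UMIs in the whole normal and 48 in the whole fibrosis library. PF-like cells had 8 UMIs in the normal library and 3 in fibrosis, for 0.234 (0.101 to 0.460) and 0.0164 (0.00338 to 0.0479). The markers of this group also differed between the libraries, and their part in the Pgf difference was not tested. HSC/MF-like cells had 0 and 14 UMIs, the latter in 9 cells. Another 14 UMIs of the fibrosis library all came from 1 EC-like cell without a zone. No Pgf UMI was found in the normal zone 1-like cells, in the Igfbp5-led ECs, or in zone 2/3-like or portal vessel-like ECs of either library, and central vein-like ECs had 2 and 5.

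**Figure D2:**
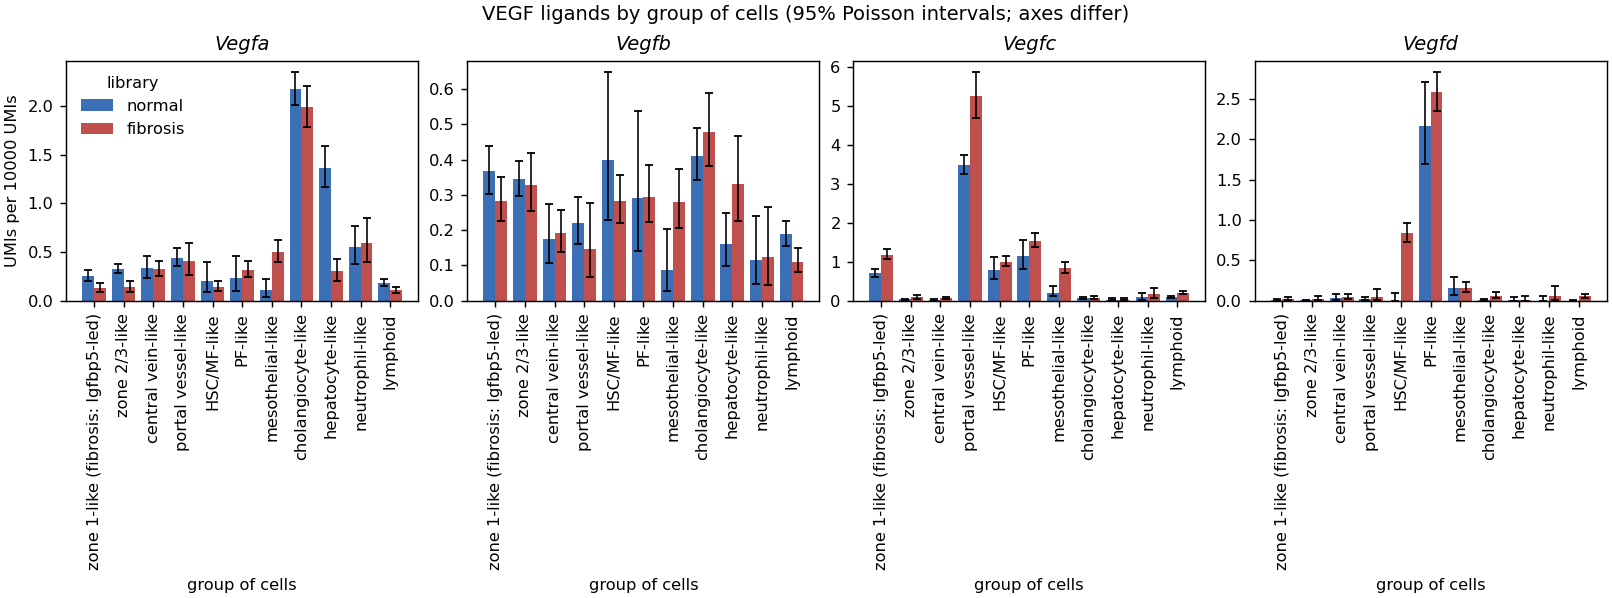
Levels of Vegfa, Vegfb, Vegfc and Vegfd (UMIs per 10000 UMIs, each panel with its own axis) in 10 groups of cells and in lymphoid cells. The bars marked zone 1-like are the Igfbp5-led ECs in fibrosis. Bars are the normal and the fibrosis library with exact 95% Poisson intervals, and the tallest bars are cholangiocyte-like for Vegfa (2.17 and 1.99), portal vessel-like for Vegfc (3.49 and 5.25) and PF-like for Vegfd (2.16 and 2.58).

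Kdr was the most abundant member and its level differed between the endothelial groups. In the normal library zone 2/3-like cells had 31.6 (31.2 to 32.1), zone 1-like cells 21.3 (20.8 to 21.8), central vein-like ECs 9.27 (8.71 to 9.86) and portal vessel-like ECs 6.12 (5.79 to 6.46). In fibrosis zone 2/3-like cells had 32.5 (31.7 to 33.3), the Igfbp5-led ECs 26.0 (25.4 to 26.6), central vein-like ECs 17.7 (17.2 to 18.3) and portal vessel-like ECs 8.87 (8.15 to 9.65). No 2 of these 4 groups overlapped within a library. The EC-like cells without a zone had 21.8 (21.0 to 22.6) in the normal library and 34.0 (33.4 to 34.6) in fibrosis, the highest Kdr level of the endothelial groups there. LSEC-like cells as a whole had 27.1 (26.7 to 27.4) and 30.3 (30.0 to 30.6) and held 68.2% and 57.3% of the Kdr UMIs of the library. The zone 2/3 over zone 1 ratio was 1.48 (1.44 to 1.53) in the normal library. With the sub-clusters placed by their 10 leading genes, the zone 1-like cells of fibrosis had 35.6 (34.9 to 36.2), above its zone 2/3-like cells, so no order of the zones is given for Kdr in fibrosis.

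Background Kdr was high. Lymphoid cells had 2.99 (2.85 to 3.13) in the normal library and 6.26 (6.02 to 6.51) in fibrosis, so that LSEC-like cells exceeded them 9.06 (8.64 to 9.51) and only 4.84 (4.64 to 5.04) times. After each cell was thinned to 1000 UMIs, which left out 0 normal and 8 fibrosis LSEC-like cells and 2 and 26 lymphoid cells, 85.0% (exact binomial interval 83.3 to 86.5) of normal and 89.1% (87.3 to 90.7) of fibrosis LSEC-like cells had a Kdr UMI. Among lymphoid cells 15.6% (13.8 to 17.5) and 33.2% (30.7 to 35.8) had one. Before thinning the shares of LSEC-like cells were 96.8% and 98.7%, at medians of 4837 and 7482 UMIs, and those of lymphoid cells 37.2% and 56.2%, at medians of 3173.5 and 2227.5 UMIs.

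Flt4 followed Kdr at a lower level. Zone 2/3-like cells had 11.4 (11.1 to 11.6) in the normal library and 11.9 (11.4 to 12.4) in fibrosis, normal zone 1-like cells 8.76 (8.44 to 9.10) and the Igfbp5-led ECs 9.82 (9.46 to 10.2). The EC-like cells without a zone had 8.71 (8.23 to 9.21) and 14.0 (13.7 to 14.4). The zone 1-like cells of fibrosis placed by their 10 leading genes had a Flt4 level of 14.5 (14.1 to 14.9). Portal vessel-like ECs had 3.00 (2.77 to 3.24) and 3.89 (3.42 to 4.42). Central vein-like ECs had 2.69 (2.39 to 3.02) and 6.39 (6.07 to 6.73), so they overlapped with the portal group in the normal library and exceeded it in fibrosis. The lymphoid level was 1.38 and 3.28, and central vein-like ECs lay 1.95 times over it in each library and portal vessel-like ECs 2.17 times in the normal library but only 1.19 (1.03 to 1.36) times in fibrosis.

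Flt1 had another order in the normal library. Central vein-like ECs had the highest level, at 13.1 (12.4 to 13.8), followed by portal vessel-like ECs at 11.0 (10.5 to 11.4), zone 2/3-like cells at 9.62 (9.37 to 9.88) and zone 1-like cells at 8.61 (8.29 to 8.94). In the fibrosis library portal vessel-like ECs led at 12.6 (11.7 to 13.5), overlapping with the Igfbp5-led ECs at 11.9 (11.5 to 12.3), while central vein-like ECs had 11.2 (10.8 to 11.7) and zone 2/3-like cells 10.3 (9.83 to 10.7). The EC-like cells without a zone had the lowest of these Flt1 levels in both, at 7.18 (6.74 to 7.64) and 9.82 (9.52 to 10.1), the latter overlapping with zone 2/3-like cells. The zone 1 over zone 2/3 ratio was 0.895 (0.854 to 0.937) in the normal library, and with the sub-clusters of fibrosis placed by their 10 leading genes it was 0.972 there. The lymphoid level was 1.31 and 2.63.

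**Figure D3:**
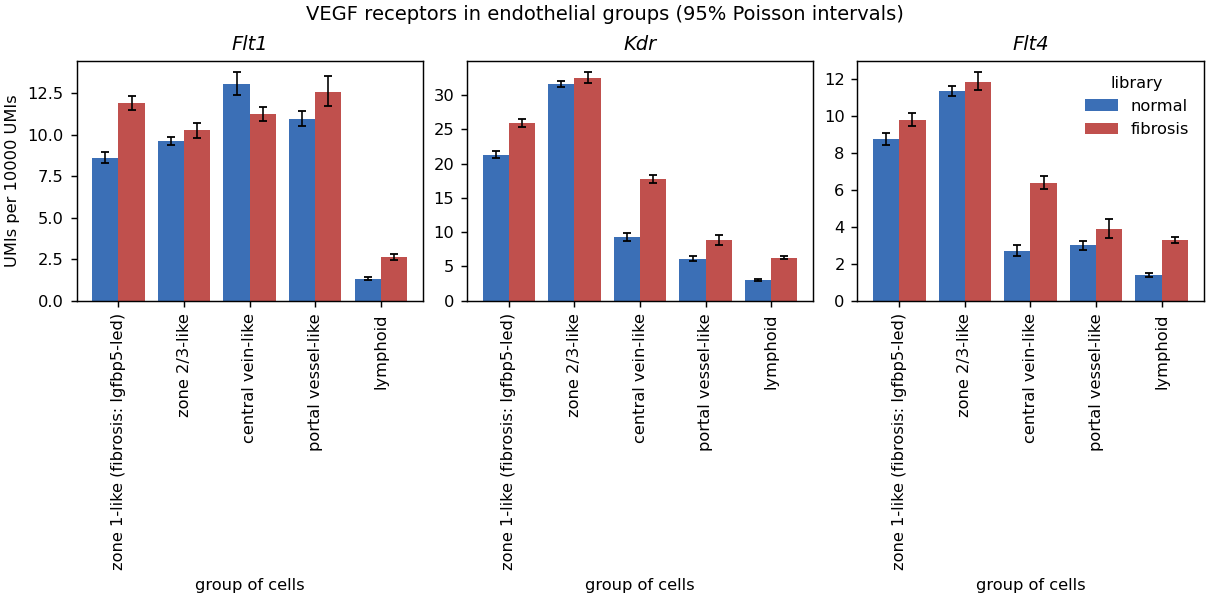
Levels of Flt1, Kdr and Flt4 (UMIs per 10000 UMIs, each panel with its own axis) in 4 endothelial groups and in lymphoid cells, with exact 95% Poisson intervals, for the normal and the fibrosis library. The bars marked zone 1-like are the Igfbp5-led ECs in fibrosis. Of the groups shown, Kdr and Flt4 are highest in zone 2/3-like cells of both libraries, whereas Flt1 varies less over the 4 endothelial groups, between 8.61 and 13.1.

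The receptor make-up set larger-vessel ECs apart from sinusoidal ones in the normal library. Of the UMIs of the 3 receptors in the normal library, Flt1 accounted for 52.2% (50.3 to 54.1) in central vein-like and 54.6% (53.1 to 56.2) in portal vessel-like ECs, but for 22.3% in zone 1-like and 18.3% in zone 2/3-like cells. Kdr accounted for 37.0% and 30.4% in the larger-vessel groups and for 55.1% and 60.1% in the zones. In fibrosis the difference was narrower for central vein-like ECs, with Flt1 at 31.8%, Kdr at 50.1% and Flt4 at 18.1%. The Igfbp5-led ECs had 25.0%, 54.5% and 20.6%, and zone 2/3-like cells 18.8%, 59.5% and 21.7%. However, the central vein markers of the fibrosis central vein-like group summed to 76.7, against 158 in the normal one. In its purer part, described below, Flt1 was higher and Kdr and Flt4 were lower than in the whole group, so the narrowing was smaller there. The part of purity in the make-up was not tested. Portal vessel-like ECs of fibrosis had Flt1 at 49.7%, Kdr at 35.0% and Flt4 at 15.4%. These shares hold only without the Igfbp5-led ECs, which the placement of sub-clusters by their leading genes put into this group. The Igfbp5-led ECs held 13649 receptor UMIs and the portal vessel-like ECs 1570. With both together the Flt1 share would lie much nearer to 25.0% than to 49.7%. LSEC-like cells as a whole kept a Flt1 share of 19.4% in both libraries, with Kdr at 58.5% and 57.6% and Flt4 at 22.0% and 23.0%.

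Nrp1, the co-receptor that binds VEGF-A together with KDR, differed little between the zones. Zone 2/3-like cells had 12.6 (12.3 to 12.9) and 12.0 (11.6 to 12.5), normal zone 1-like cells 11.5 (11.1 to 11.9) and the Igfbp5-led ECs 11.1 (10.7 to 11.5), central vein-like ECs 8.24 (7.70 to 8.79) and 7.94 (7.58 to 8.32), and portal vessel-like ECs 5.18 (4.87 to 5.49) and 4.54 (4.03 to 5.10). The lymphoid level was 1.42 and 2.33. Nrp2, the partner of FLT4 in lymphatic vessels, was lower in each of these 4 groups. In zone 2/3-like cells it was at 5.98 (5.78 to 6.19) and 6.31 (5.96 to 6.67), with a zone 2/3 over zone 1 ratio of 1.33 (1.25 to 1.41) in the normal library. Portal vessel-like ECs had 1.84 and 2.42. Nrp1 made up 68.9% and 66.9% of neuropilin UMIs in LSEC-like cells.

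A group of 14 normal cells had another make-up. It was led by Ccl21a, Mmrn1 and Tbx1, and it was given no name because no marker list used here covered it. It clustered with the mesenchymal cells, although 15 of 18 HSC markers and 10 of 15 PF markers were at 0 in it. Flt4 was at 13.5 (11.3 to 16.0) and made up 61.5% (54.6 to 68.1) of its 213 receptor UMIs, with Kdr at 38.0% and Flt1 at 0.469%, or 1 UMI. Nrp2 was at 9.91 (8.03 to 12.1) and made up 99.0% (94.4 to 100) of its 97 neuropilin UMIs. Thus the group combined a Flt4 level as high as in LSEC-like cells and a higher Nrp2 level with almost no Flt1 or Nrp1. Vegfc, Vegfd and Pgf had 0 UMIs there. Endothelial markers summed to 112 per 10000 in it, with 12 of 20 over the lymphoid level and Clec1b at 0, and Flt4 and Nrp2 exceeded the number expected with those markers 3.37 (2.82 to 4.01) and 4.73 (3.83 to 5.79) times.

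Outside the endothelium, receptor UMIs were set against endothelial markers. The number of receptor UMIs expected in a group was computed from its endothelial-marker UMIs and the receptor-to-marker ratio in LSEC-like cells. Over 135 pairs of a receptor or neuropilin and a group, the median of observed over expected was 0.920, and 33 pairs lay above and 53 below the expected number beyond the counting interval. With 4 markers (Egfl7, Clec14a, Mmrn2 and Ushbp1), chosen after the data were seen and set against the EC group with the highest ratio, 30 lay above and 79 below. For all 10 members the pairs above were 116 and 91 of 270, ligands included. Kdr was below the expected number in Kupffer cell-like cells, at 0.483 and 0.233 of it, and in HSC/MF-like cells, at 0.609 and 0.493. The raw Kdr level of fibrosis erythroid-like cells, 11.4 (10.7 to 12.1), exceeded that of portal vessel-like ECs, at a median of 987 UMIs per cell and with 109 endothelial-marker UMIs per 10000.

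Some groups stood out from that expectation. PF-like cells had 1.40 (1.03 to 1.86) Flt1 in the normal library and 1.74 (1.55 to 1.94) in fibrosis, 2.38 (1.75 to 3.16) and 2.46 (2.19 to 2.75) times the expected number, and 2.15 and 3.35 times with the 4 markers. Only the normal value exceeded the lymphoid level, and by a margin within the intervals. Nrp1 in PF-like cells was at 2.98 (2.43 to 3.62) and 1.44 (1.27 to 1.63), 3.86 and 1.79 times the expected number, above the lymphoid level of 1.42 in the normal library but below that of 2.33 in fibrosis. The PF markers of this group went from 125 to 74.4, and their part in the Nrp1 difference was not tested. Monocyte/macrophage-like cells of the fibrosis library had 1452 Nrp1 UMIs where 607 were expected, a ratio of 2.39 (2.26 to 2.52), and 848 Nrp2 UMIs where 301 were expected, a ratio of 2.82 (2.62 to 3.03). With the 4 markers these ratios were 5.24 and 5.85. Against the fibrosis lymphoid levels of 2.33 for Nrp1 and 1.69 for Nrp2, however, these cells had 2.60 and 1.52, so that Nrp2 lay below that background.

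Mesothelial-like cells of the normal library had 306 Kdr UMIs where 162 were expected, a ratio of 1.89 (1.68 to 2.12), for a level of 5.30 (4.72 to 5.92). In fibrosis Kdr was at 2.54 (2.30 to 2.79) in these cells, 0.663 of the expected number. Their Nrp2 was 2.80 (2.24 to 3.45) times the expected number in the normal library and 1.40 (1.20 to 1.63) in fibrosis. Its levels were 1.54 and 1.02 against 0.695 and 1.69 in lymphoid cells, and so below the lymphoid level in fibrosis. Endothelial markers there summed to 31.4 per 10000 in mesothelial-like and 63.7 in lymphoid cells. Dendritic cell-like cells had 1.60 and 1.61 times the expected Nrp1, but at 0.842 and 1.45 they lay below the lymphoid level in both. Plasmacytoid dendritic cell-like cells had 1.51 in the normal but 1.06 in the fibrosis library. Mesenchymal cells with endothelial RNA (63 normal cells in 1 sub-cluster and 168 fibrosis cells in 3, of 66, 38 and 64 cells and the second of them with cell cycle genes in the lead, with medians of 15319 and 27279.5 UMIs) held Flt1 at 5.59 and 5.72 and Nrp1 at 6.11 and 6.60, next to 149 and 152 endothelial-marker UMIs per 10000, and the part of doublets in them was not tested here.

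**Figure D4:**
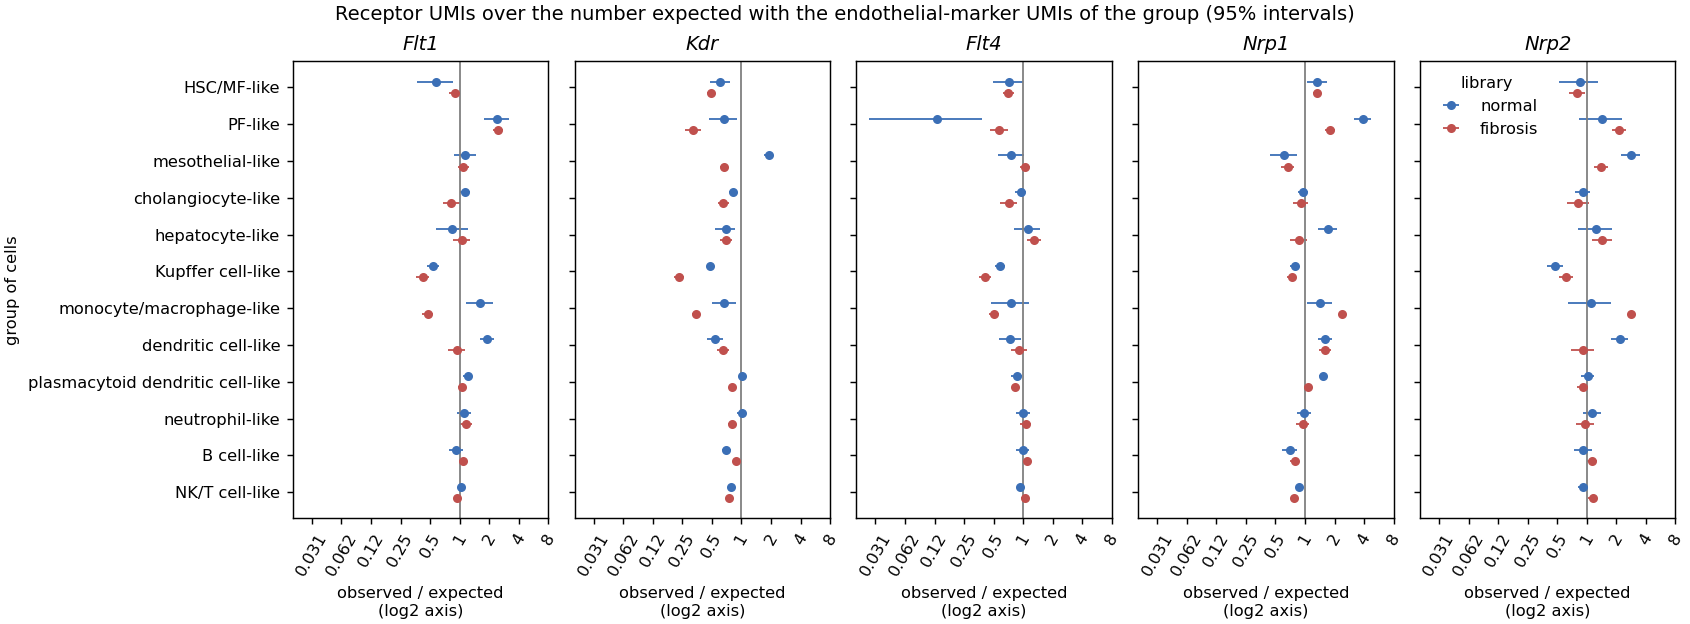
Observed over expected UMIs of Flt1, Kdr, Flt4, Nrp1 and Nrp2 (x axes, log2 scale) in 12 groups of cells outside the endothelium, where the expected number comes from the endothelial-marker UMIs of the group. Points are the 2 libraries with 95% intervals and the grey line marks 1. Nrp1 and Nrp2 of the fibrosis monocyte/macrophage-like cells lie at 2.39 and 2.82, and Flt1 of PF-like cells at 2.38 and 2.46.

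Between the libraries, the receptors of LSEC-like cells differed little. The fibrosis over normal ratio was 1.14 (1.11 to 1.17) for Flt1, 1.12 (1.10 to 1.14) for Kdr, 1.19 (1.15 to 1.22) for Flt4, 0.987 (0.963 to 1.01) for Nrp1 and 1.08 (1.04 to 1.12) for Nrp2. With the lymphoid level of each library subtracted they were 0.989, 0.998, 0.998, 0.898 and 0.879. The subtraction takes the background per 10000 UMIs as the same in both kinds of cell, which was not tested. Lymphoid cells were shallower, at medians of 3173.5 and 2227.5 UMIs against 4837 and 7482 in LSEC-like cells. Taking 1.5 times as the limit, 2 of the 8 members tested passed it in LSEC-like cells, Vegfc upward and Vegfa downward, next to 17.6% of 7201 genes in all, 9.86% upward and 7.69% downward. The median log2 ratio of the members was 0.14, against 0.087 over all genes.

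The Vegfc difference changed direction with the grouping of the cells. In LSEC-like cells it was 0.263 (0.233 to 0.297) in the normal and 0.436 (0.398 to 0.477) in fibrosis, a ratio of 1.66 (1.42 to 1.93), but the ratio lay below 1 under 4 other groupings, at 0.270 to 0.991, and without the Igfbp5-led ECs the LSEC-like cells of fibrosis had 0.172 (0.144 to 0.203), a ratio of 0.651. Over all EC-like cells it was 0.789 (0.718 to 0.866). The portal vessel-like group held 294 normal and 105 fibrosis cells, and it held 54.7% and 14.6% of all Vegfc UMIs. No direction for sinusoidal Vegfc is therefore given.

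Among the central vein-like, portal vessel-like and zone 2/3-like groups, central vein-like ECs showed the widest differences in Kdr and Flt4. Kdr went from 9.27 to 17.7, a ratio of 1.91 (1.78 to 2.05), and Flt4 from 2.69 to 6.39, a ratio of 2.37 (2.09 to 2.70), while Flt1 went from 13.1 to 11.2, a ratio of 0.861 (0.806 to 0.919). In this group 17.8% of 7284 genes passed 1.5 times upward. The central vein markers summed to 158 in the normal and 76.7 in the fibrosis group. A finer grouping, tried after the data were seen, left 111 fibrosis cells with those markers at 103, in which Kdr was 10.6, Flt4 4.18 and Flt1 12.3. Portal vessel-like ECs had ratios of 1.45 (1.31 to 1.60) for Kdr, 1.30 (1.12 to 1.51) for Flt4 and 1.15 (1.06 to 1.25) for Flt1. In lymphoid cells the ratios were larger, at 2.10 for Kdr and 2.38 for Flt4. With the lymphoid level subtracted, as was also chosen after the data were seen, the portal ratios were 0.833, 0.378 and 1.03. Only 12 of 20 endothelial markers exceeded the lymphoid level in fibrosis portal vessel-like ECs, so the subtraction would leave no level for the others. No direction is given for Kdr and Flt4 in portal vessel-like ECs. For central vein-like ECs the subtracted ratios of Kdr, Flt4 and Flt1 were 1.82, 2.36 and 0.733. In their 111 purer cells Kdr and Flt4 were 10.6 and 4.18, next to 6.26 and 3.28 in fibrosis lymphoid cells. The normal central vein-like group had 9.27 and 2.69, next to 2.99 and 1.38 in lymphoid cells. No direction is therefore given for Kdr and Flt4 in central vein-like ECs either. In zone 2/3-like cells Flt1 and Kdr both lay between 1.03 and 1.07, and at 0.919 and 0.917 with the lymphoid level subtracted. The EC-like cells without a zone, which took in different sub-clusters in the 2 libraries, had ratios of 1.56 for Kdr and 1.61 for Flt4.

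**Figure D5:**
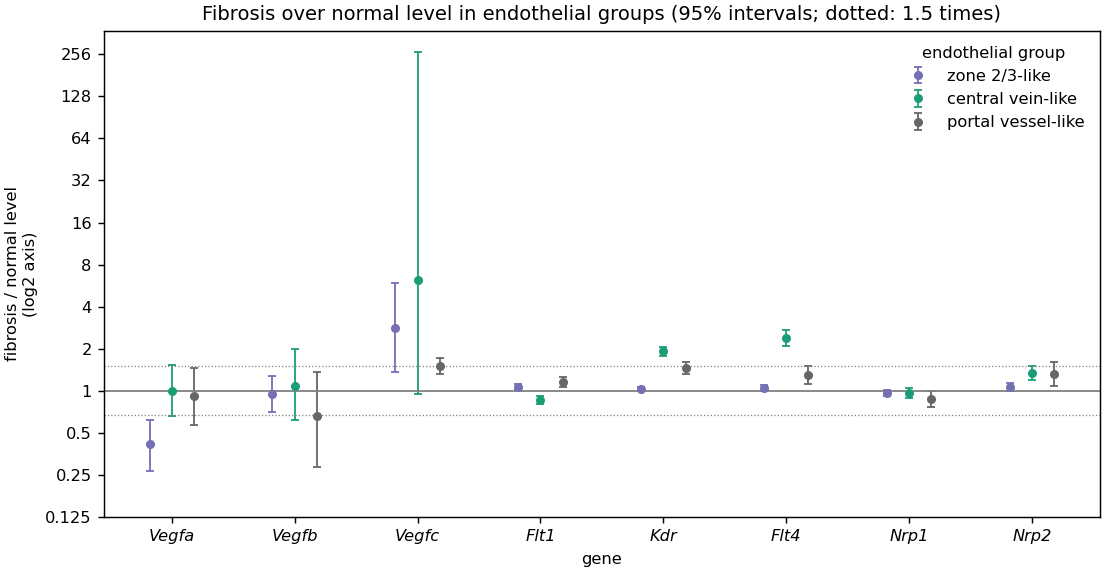
Fibrosis over normal ratio of the level of 8 members (y axis, log2 scale) in 3 endothelial groups, with exact 95% intervals, a grey line at 1 and dotted lines at 1.5 times in either direction. Kdr and Flt4 of central vein-like ECs lie at 1.91 and 2.37, and the receptors and neuropilins of zone 2/3-like cells between 0.957 and 1.07. Ratios are shown without subtraction of the lymphoid level.

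In HSC/MF-like cells 2 of 8 members tested passed 1.5 times, both upward, next to 35.1% of 7364 genes in either direction and 21.5% upward. These were Vegfd and Flt1, the latter at 0.597 (0.383 to 0.889) and 0.989 (0.870 to 1.12), below the lymphoid level in both libraries. In monocyte/macrophage-like cells Nrp1 had a ratio of 3.46 (2.60 to 4.72) and Nrp2 of 5.71 (3.55 to 9.85), on 112 normal and 406 fibrosis cells, while Kdr had 1.20 (0.904 to 1.63) and Flt1 0.690 (0.496 to 0.980). The group held different sub-clusters in each library, 69 cells led by Prg4 and Retnla and 43 led by Cd300e in the normal library, against 164 cells with Fabp5 and Gpnmb, 138 led by Ms4a7 and Cx3cr1, 80 led by Ace and 24 led by Vcan in fibrosis. The 12 Kupffer cell markers summed to 9.35 in the normal and 92.0 in the fibrosis group, none at 0, and the endothelial markers to 12.8 and 23.2. Their part in the neuropilin difference was not tested.

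The genes whose levels ran most like each member over 38 points, each a group of cells in 1 library, were taken from 5815 genes by Pearson correlation of log2(level + 0.1). The points share libraries and background, so the values are a description. Kdr ran with Oit3, Clec4g and Gpr182 (r = 0.98, 0.98 and 0.97), which are markers of LSECs. Flt4 ran with Pcdh12, Clec4g and Oit3 (each 0.97), and Flt1 with Tek, the angiopoietin receptor, Fgd5 and Elk3 (0.97, 0.97 and 0.96). Nrp1 was most like Hecw2, and Nrp2 most like Numb (both 0.94). Vegfc ran with Hmcn1 (0.90), and Vegfd with Mfap2, Svep1 and Dpt (0.97, 0.96 and 0.94), genes of the fibroblast matrix. Vegfa was most like Clu (0.82), and Vegfb most like Gng12 (0.65).

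Of 69 further genes of the pathway in 7 lists, 40 were tested in LSEC-like cells. Their counts are given only with the Igfbp5-led ECs included, so calls near the limit depend on that group. Among genes that VEGF is known to induce, 4 of 7 passed 1.5 times upward and 0 downward, with a median log2 ratio of 0.63, next to 9.86% of all genes upward and a median of 0.087. Esm1, a proteoglycan of angiogenic tip cells, went from 0.342 to 1.32, a ratio of 3.85 (3.42 to 4.34), and lymphoid cells from 0.0334 to 0.299. Nr4a1, an immediate early transcription factor, went from 0.381 to 1.21, a ratio of 3.19 (2.84 to 3.58), but lymphoid cells had more of it, at 1.67 and 2.60. Nr4a2 went from 0.191 to 0.321 and Rcan1 had a ratio of 1.55, while lymphoid cells had 1.25 and 0.671 for Nr4a2 and 0.219 and 0.487 for Rcan1, so Nr4a2 was also higher in lymphoid cells. The Rcan1 interval of 1.42 to 1.69 included the limit. Its fibrosis level was 1.41 in the Igfbp5-led ECs and 1.26 in all LSEC-like cells. Dll4, the Notch ligand of tip cells, had a ratio of 0.914 (0.852 to 0.981). Between the zones of the normal library, Esm1 was 1.73 times and Dll4 2.45 times higher in zone 1-like cells.

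Ligand processing and trap genes gave 2 of 4 upward and 0 downward, with a median log2 ratio of 0.53, beside the same 9.86% and 0.087 over all genes. Adamts1, a protease that also binds VEGF, went from 5.0 to 10.6, a ratio of 2.12 (2.05 to 2.19), and lymphoid cells from 0.682 to 3.25. Hspg2, the proteoglycan perlecan, went from 7.03 to 11.0, a ratio of 1.57 (1.53 to 1.62), and lymphoid cells from 0.981 to 3.52. Class 3 semaphorins, the other ligands of neuropilins, gave 1 of 2 in each direction, with Sema3f from 2.11 to 3.24 and Sema3d from 0.323 to 0.158. The Sema3f ratio of 1.54 (1.46 to 1.62) had an interval that included the limit. Sema3f was 4.45 in the Igfbp5-led ECs but 3.08 in zone 2/3-like cells of fibrosis. Of 14 receptor partners and signalling genes, Grb10 passed upward, at 1.80, and Erg, an ETS factor, downward, at 0.664. The Erg interval of 0.562 to 0.784 included the limit. Its fibrosis level was 0.217 in the Igfbp5-led ECs and 0.226 in all LSEC-like cells. The lists of 4 plexins and 2 Tie receptors gave 0 in either direction, and oxygen sensing gave 1 of 7 upward, Vhl at 1.65. In HSC/MF-like cells the processing and trap list gave 3 of 7 upward and 2 downward, next to 35.1% of all genes in either direction. Thbs2 went from 0.871 to 2.21, Hspg2 from 2.17 to 5.16 and Ctsd from 3.83 to 6.97, while Adamts1 went from 6.37 to 4.08 and Ccbe1, which enables the processing of VEGF-C, from 3.14 to 1.22. The HSC markers in these cells went from 295 to 123, and their part in this was not tested.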

How the data were processed

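NPCs from the livers of 1 normal and 1 fibrosis mouse were profiled by scRNA-seq with 10x 3′ chemistry. Per the labels and the methods, the authors aligned the reads to mm10 with Cell Ranger 3.0.1, and they deposited UMI counts per gene and cell without normalization. Cells were kept if over 200 genes were detected and under 10% of UMIs were mitochondrial.

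Each library was clustered with scanpy 1.11.5 (Python 3.11.15): 2000 variable genes, from which the 10 members and 69 pathway genes were held out, 10 principal components, 20 neighbours and Leiden at a resolution of 0.8. A cluster was named by the marker list best represented in its top 10 genes, with at least 3 markers raised, or, with no marker there, by the list with the largest share of its markers raised. The latter named 1 fibrosis cluster of 385 cells as monocyte/macrophage-like and 2 small normal ones as cycling. Endothelial sub-clusters were instead placed by the zone list with the highest mean log2 fold over the other ECs, over 0.1 and with most of its markers raised, and the shallowest were given no zone. One fibrosis group whose top 10 genes went against its placement is called by its leading gene. Scrublet, at an expected rate of 0.06, called 1 cell per library, too few to count as having worked, and no doublets were removed.

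With 1 library per group no test was run. UMIs were summed per group and given per 10000 with exact Poisson intervals, ratios with exact conditional intervals and shares with exact binomial (Clopper-Pearson) intervals, all at 95% and computed with scipy 1.17.1. They cover counting error only. A count of 0 was given the limit of 3 counts. A gene was tested in a comparison where its mean level over both groups was at least 0.2, and passed where the ratio was over 1.5 in either direction. Named genes were all members, pathway genes past that limit in LSEC-like cells or highest in a described class, and the 3 genes most like each member.

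The members, lists, markers and tests were chosen with earlier results of these data known. The alternatives were other limits on cells and levels, other clustering resolutions, high Scrublet scores left out, UMIs per cell, the lymphoid level subtracted and, added after the data were seen, endothelial sub-clusters placed by their top 10 genes. The counting step was tested on simulated data.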

Additional observations from a re-analysis of the deposited data

Results flagged for a closer look

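Flt1 differed in direction between endothelial groups. Its fibrosis over normal ratio was 1.14 in LSEC-like cells and 0.861 in central vein-like ECs, with counting intervals on opposite sides of 1. Without the Igfbp5-led ECs the Flt1 ratio of LSEC-like cells was 1.07, and with the lymphoid level subtracted the ratios were 0.989 in all LSEC-like cells and 0.733 in central vein-like ECs, both under 1. With 1 library per group the difference between these ratios was not tested. The fibrosis central vein-like group held fewer central vein markers than the normal one, and in its purer part of 111 cells, chosen after the data were seen, Flt1 was 12.3 UMIs per 10000, against 13.1 in the normal group.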

How the results depend on the processing

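Each result rested on 1 library per group, and depth limited Pgf and the low ligand values. No paired analysis was possible because each group has 1 library.

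Of the values recomputed under the alternatives, 223 kept their direction within their error or count limit, 114 moved and 5 reversed. The 5 were all Vegfc in LSEC-like cells, whose ratio of 1.66 became 0.270 with the mitochondrial share under 5%, 0.991 with only cells of at least 2000 UMIs, 0.615 at a resolution of 1.5, 0.931 with the highest 5% of Scrublet scores left out and, in an alternative chosen after the data were seen, 0.651 with endothelial sub-clusters placed by the markers among their 10 leading genes. These settings redraw the groups of cells.

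The count of members past 1.5 times in LSEC-like cells was 2. It was 7 with UMIs per cell in place of UMIs per 10000, 4 with no filter on the level, 1 with the mitochondrial share under 5%, with at least 2000 UMIs, at a resolution of 0.4 or without high Scrublet scores, and 0 with the lymphoid level subtracted or at a limit of 2 times. Between the zones of the normal library the count was 1. It was 2 with UMIs per cell, the mean over cells or the lymphoid level subtracted, 4 with the mitochondrial share under 5%, with at least 2000 UMIs, at a resolution of 1.5 or without high Scrublet scores, and 0 at a resolution of 0.4. Between the Igfbp5-led ECs and zone 2/3-like cells of fibrosis it was 1, 2 with the lymphoid level subtracted, and 0 with sub-clusters placed by their 10 leading genes, where Vegfc had a ratio of 2.37 but fell under the level filter. That placement moved the Igfbp5-led ECs to the portal vessel-like group. The receptor and neuropilin ratios of LSEC-like cells then lay between 1.0 and 1.26. In HSC/MF-like cells it was 2, and became 8 with UMIs per cell, 5 at a resolution of 0.4, and 1 with the lymphoid level subtracted or at a limit of 2 times. Some calls were lost through the level filter and not through the fold. These were Vegfa in LSEC-like cells with the lymphoid level subtracted (0.442, with Vegfc at 1.32) or the mitochondrial share under 5% (0.431), and Vegfc at a resolution of 0.4 (1.77 in LSEC-like cells and 8.41 between the normal zones). The other causes were not tested.

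The Kdr share of LSEC-like cells, 85.0% and 89.1% at 1000 UMIs, was 96.0% and 98.4% at 2000 UMIs and 96.8% and 98.7% without thinning. Thinning leaves out cells below the depth set, so these settings differ in the cells kept as well as in depth. The setting with a mitochondrial share under 5% gave no zone 2/3-like or HSC/MF-like cells in the fibrosis library and was not run there.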
